A study of Homo sapiens with 12 samples.

Results

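Small nucleolar RNA (snoRNA) and small Cajal body RNA (scaRNA) genes were followed in papillary thyroid cancer cells exposed to Y15, a small molecule that inhibits focal adhesion kinase (FAK). The genes were taken by symbol, as every gene of the array whose symbol begins with SNORD, SNORA or SCARNA, leaving out SNORD3 and its lettered copies. There were 298 such genes among 20044 named genes, of which 173 were C/D box genes (SNORD), 101 were H/ACA box genes (SNORA) and 24 were scaRNA genes (SCARNA). The cells were TPC1, BCPAP and K1, each treated with 10 µM Y15 for 24 h or left untreated, which makes 6 groups with 2 arrays in each. All 3 are established lines, and each stands for its own line only. The labels do not say whether the arrays of a group came from separate cultures, so a p-value here reflects the scatter of these arrays, which may be technical, and the small number of arrays limits the precision.

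SnoRNAs guide chemical modification of ribosomal RNA in the nucleolus. C/D box snoRNAs direct 2′-O-methylation by the methyltransferase fibrillarin, H/ACA box snoRNAs direct pseudouridylation by dyskerin, and scaRNAs direct the same reactions on the spliceosomal snRNAs in Cajal bodies. Most human snoRNAs are cut from introns of host genes, many of which encode ribosomal or nucleolar proteins or are noncoding. The labelling kit named in the labels copies RNA from poly(A) tails, which mature snoRNAs lack, so the values are those of the RNA that the probes captured after such labelling and are not amounts of mature snoRNA.

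Fewer of these genes than of all genes gave a signal above background, which is used here for a detection p-value under 0.05. On both arrays of the group 107 of the 298 were above background in TPC1 with Y15, against 95 in untreated TPC1. In BCPAP the number was 94 with Y15 and 65 untreated, and in K1 it was 90 with Y15 and 94 untreated. Of all named genes 45.8% to 53.9% were above background in a group. Replicate 2 of untreated BCPAP was the dimmest array, with 16004 probes of any gene above background where the other arrays had 18268 to 20376. On that array 73 snoRNA and scaRNA probes were above background, against 101 on the other untreated BCPAP array. In TPC1 the 2 Y15 arrays had 123 and 129 of these probes above background, and the 2 untreated arrays had 112 and 105, while the number over all probes was lower on the Y15 arrays (19203 and 18834) than on the untreated arrays (20376 and 19788).

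**Figure D1:**
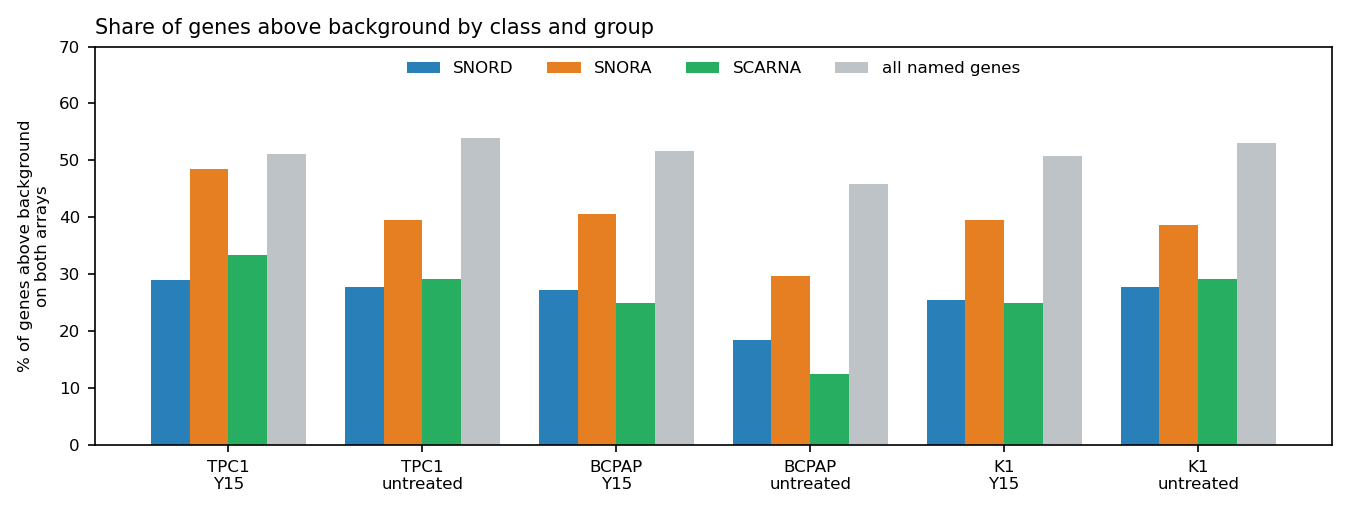
Share of genes above background on both arrays (%, vertical axis) in each group of line and treatment, for SNORD, SNORA and SCARNA genes and for all named genes. SNORA genes had the highest share of the 3 classes in every group, from 29.7% in untreated BCPAP to 48.5% in TPC1 with Y15, and SNORD genes lay between 18.5% and 28.9%.

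The signals were low. Above background on all 12 arrays were 60 of the 298 genes (28 SNORD, 29 SNORA and 3 SCARNA), and 113 were above background on none of the 12. A gene was tested where some group had it above background on each of its arrays, which held for 124 (60 SNORD, 55 SNORA and 9 SCARNA). They are not all of the genes, since a gene that was dim in every group had no test. Their median level was 7.09 on the log2 intensity scale, against 7.81 over all 12378 genes tested, and the lowest signal above background averaged 6.87 over the arrays. The class medians were close to each other, at 7.09 for SNORD, 7.09 for SNORA and 7.02 for SCARNA. The brightest probes were those of SNORA61, SNORA67 and SNORA70 among the H/ACA genes (mean log2 intensity 9.26, 8.86 and 8.86), SNORD104, SNORD96A and SNORD68 among the C/D genes (8.35, 7.95 and 7.95), and SCARNA10, SCARNA9 and SCARNA13 among the scaRNA genes (8.31, 7.58 and 7.19). Intensities of different probes are not amounts, so this order describes the probes and not the RNAs.

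Y15 raised many of these genes in TPC1 cells. Of the 124 tested, 55 rose and 1 fell at an adjusted p under 0.05 (limma, Benjamini-Hochberg over all genes tested), which is 44.4% higher, where 15.3% of all genes tested were higher and 16.1% were lower. The median log2 change was 0.24 over the snoRNA and scaRNA genes and 0.00 over all genes tested. On these quantile-normalized log2 values the changes were small, and SNORA67 alone passed 2-fold. A gene could be tested if it was detected on the Y15 arrays of a line alone. With no filter on detection 52 of all 298 rose (17.4%), where 9.16% of all genes did, and the median log2 change of the 298 was 0.07. By class, 28 of 55 SNORA genes rose (50.9%), 24 of 60 SNORD genes (40.0%) and 3 of 9 SCARNA genes (33.3%), with median log2 changes of 0.26, 0.23 and 0.15. Both Y15 arrays lay above both untreated arrays for 99 of the 124, where 35.9% of all genes did so, and below both for 3, where 36.7% did.

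The count of 55 depended on the scaling. With each array centred on its median in place of quantile normalization the median log2 change of all genes tested became -0.21 for TPC1, 0.24 for BCPAP and -0.10 for K1. Then 8 of the genes rose in TPC1 and 1 fell, where 1.82% of all genes were higher and 19.3% were lower, and the median change of the snoRNA and scaRNA genes was 0.13, which is 0.34 above that of all genes. With quantile normalization they lay 0.24 above it. Leaving out 1 TPC1 array also lowered the count, but the number tested changed and the share of all genes called higher fell as well. The median log2 change was 0.20 over 133 genes without replicate 2 of TPC1 with Y15. It was 0.21 over 129 genes without replicate 1 of untreated TPC1. With neqc, a background correction from the detection p-values, changes were larger. Then 63 of the 124 rose (50.8%) and 1 fell, where 14.2% of all genes were higher and 14.8% were lower. The median log2 change of the snoRNA and scaRNA genes was 0.67 with neqc. The 15 genes that rose most with quantile normalization had changes of 0.86 to 1.95 with neqc.

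**Figure D2:**
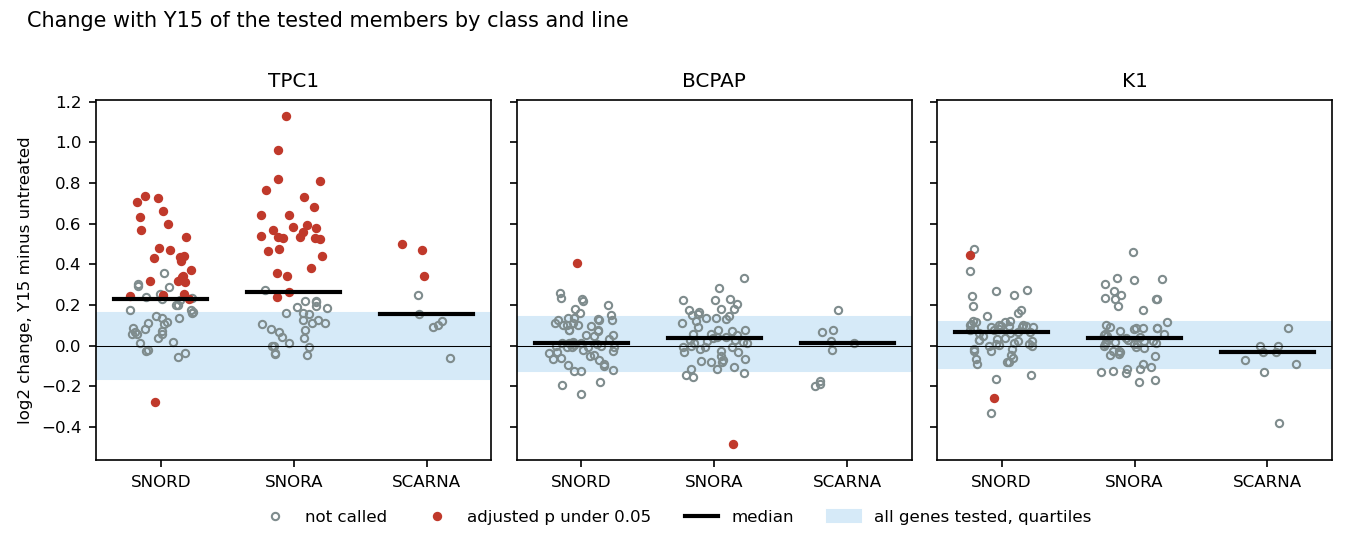
Log2 change, Y15 minus untreated (vertical axis), of the 124 tested genes in TPC1, BCPAP and K1, by class. Each circle is a gene, filled where the adjusted p was under 0.05, the bar is the class median, and the band spans the quartiles of all genes tested. In TPC1 the 3 class medians are 0.23 (SNORD), 0.26 (SNORA) and 0.15 (SCARNA), and in BCPAP and K1 they lie between -0.03 and 0.07.

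The H/ACA genes held most of the larger changes in TPC1. SNORA67, which guides pseudouridylation of rRNA, had log2 intensities of 9.40 and 9.77 in TPC1 with Y15, against 8.36 and 8.56 in untreated TPC1. Its log2 change was 1.13 (standard error SE 0.178, adjusted p = 0.000607 from limma). Both treated arrays lay well above both untreated ones. SNORA63, also an H/ACA snoRNA of the nucleolus, had 8.03 and 8.07 with Y15 and 7.07 and 7.11 untreated, a log2 change of 0.96 (SE 0.131, adjusted p = 0.000234 from limma). The replicates of SNORA63 differed by no more than 0.04 in either TPC1 group. For SNORA7B the values were 8.14 and 8.0 with Y15 and 7.21 and 7.29 untreated (log2 change 0.82, SE 0.163, adjusted p = 0.00268 from limma). SNORA70 gave 9.51 and 9.76 with Y15, against 8.81 and 8.99 untreated (log2 change 0.73, SE 0.159, adjusted p = 0.0047 from limma). The groups of SNORA7B and SNORA70 did not overlap.

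SNORA25 and SNORA8, which lie in the same host gene, moved alike in TPC1. SNORA25 had log2 intensities of 8.65 and 8.60 with Y15 and 7.84 and 7.78 untreated (log2 change 0.81, SE 0.168, adjusted p = 0.00346 from limma). For SNORA8 these were 8.21 and 8.34 with Y15 and 7.50 and 7.51 untreated (log2 change 0.76, SE 0.111, adjusted p = 0.000372 from limma). In both the lowest Y15 array exceeded the highest untreated array. SNORA18, SNORA10 and SNORA64 were next among the H/ACA genes, with log2 changes of 0.68, 0.64 and 0.64. SNORA73B, which takes part in rRNA processing, had 2 probes, and both rose in TPC1, with log2 changes of 0.53 and 0.49.

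Among the C/D genes SNORD56 and SNORD14C rose most in TPC1. SNORD56 had log2 intensities of 7.68 and 7.81 in TPC1 with Y15, against 7.05 and 6.97 in untreated TPC1 (log2 change 0.73, SE 0.175, adjusted p = 0.00793 from limma). SNORD14C, a copy of the U14 snoRNA needed for processing of the small subunit rRNA, had 8.15 and 8.08 with Y15 and 7.45 and 7.33 untreated (log2 change 0.73, SE 0.119, adjusted p = 0.000808 from limma). The Y15 arrays of both genes were above their untreated arrays. SNORD104, SNORD13, SNORD83B and SNORD46 followed with log2 changes of 0.71, 0.66, 0.63 and 0.60. SNORD13, which has a promoter of its own and is linked to acetylation of the small subunit rRNA, had 8.69 and 8.56 with Y15 and 7.80 and 8.13 untreated.

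Of the scaRNA genes SCARNA10, SCARNA13 and SCARNA18 rose in TPC1. SCARNA10, which guides modification of a spliceosomal snRNA, had log2 intensities of 8.45 and 8.42 in TPC1 with Y15, against 7.88 and 7.99 in untreated TPC1 (log2 change 0.50, SE 0.085, adjusted p = 0.00101 from limma). SCARNA13 had 7.57 and 7.50 with Y15 and 7.11 and 7.02 untreated, a log2 change of 0.47. The groups of both genes were apart. SCARNA18 was not above background on either untreated TPC1 array and was at least 1.22-fold higher with Y15 (adjusted p = 0.0187 from limma). Such a bound sets the mean of the brighter group against a dim group in which each array counts as its own signal or the lowest signal above background on it, whichever is higher.

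**Figure D3:**
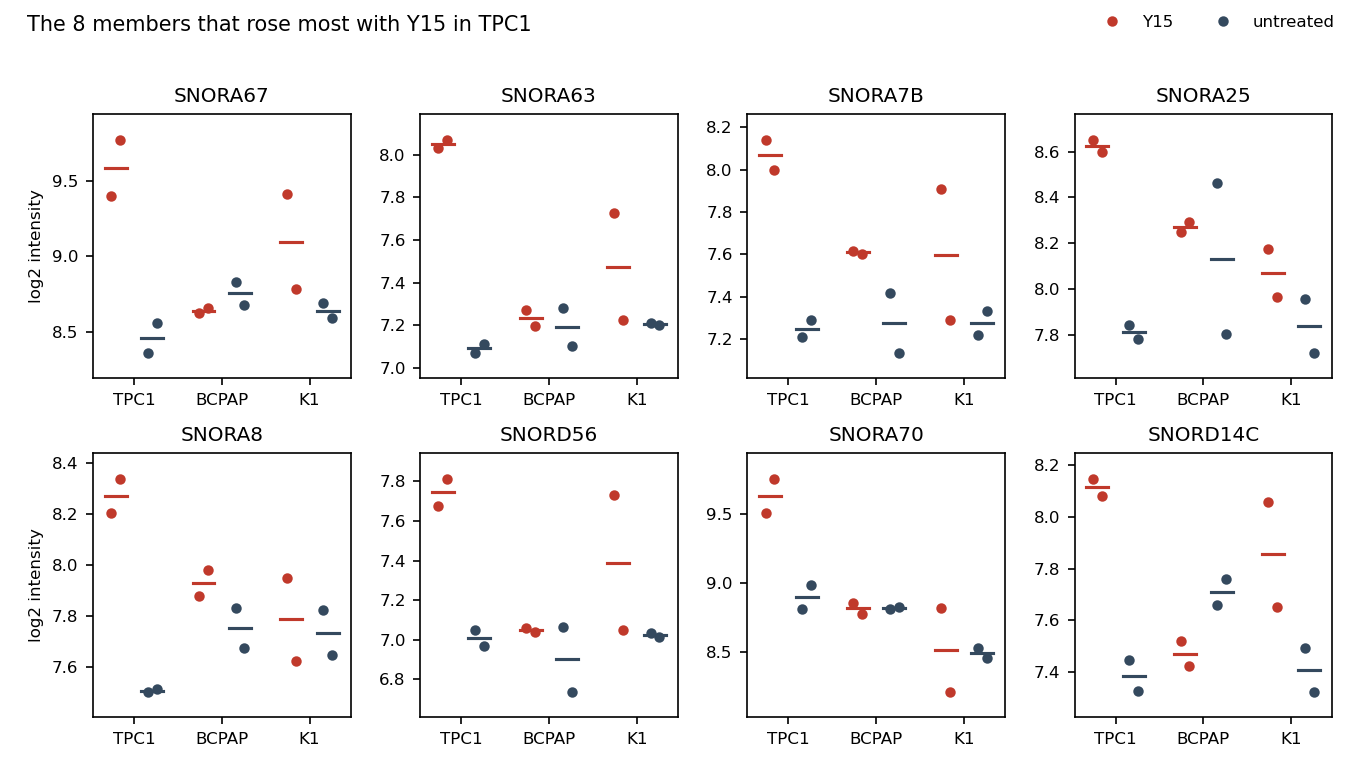
Log2 intensity (vertical axes) on each array for the 8 genes with the largest rise in TPC1, by line, with Y15 to the left of untreated. Points are arrays, and bars are the means of 2 arrays. In TPC1 each pair of Y15 points lies above the untreated pair, and in K1 the replicate 1 point with Y15 lies above the replicate 2 point in all 8 genes.

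The remaining higher genes ranged down to a log2 change of 0.23. Untreated TPC1 was above background on both arrays for 48 of the 55, on 1 array for 4 and on neither for 3. Besides SCARNA18 the 3 were SNORD49A and SNORD53, at least 1.14-fold and at least 1.10-fold higher with Y15 (adjusted p = 0.0225 and 0.0149 from limma). SNORD123 was the gene that fell. It was not above background in TPC1 with Y15, with log2 intensities of 6.78 and 6.76, against 7.09 and 7.0 in untreated TPC1, and was at least 1.13-fold lower (adjusted p = 0.0134 from limma).

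In BCPAP cells 1 of the 124 genes rose and 1 fell, where 8.65% of all genes tested were higher and 7.6% were lower. The median log2 change was 0.02, against 0.01 over all genes. SNORD95 had log2 intensities of 7.54 and 7.53 in BCPAP with Y15, against 7.08 and 7.18 in untreated BCPAP (log2 change 0.41, SE 0.0792, adjusted p = 0.00594 from limma). SNORA50C had 7.38 and 7.23 with Y15 and 7.82 and 7.76 untreated, and fell by 0.48 in log2 units (SE 0.0979, adjusted p = 0.00728 from limma). In neither gene did the groups overlap. Both Y15 arrays lay above both untreated arrays for 29 of the 124, where 31.2% of all genes did so, and below both for 18, where 27% did. At an unadjusted p under 0.05 from limma, 7 of the 124 were higher and 2 were lower, where 16.2% and 14.3% of all genes were. With median centring 4 rose and 0 fell, where 16.9% and 0.0485% of all genes did so. The median log2 change was 0.06 without replicate 1 of untreated BCPAP and 0.05 without replicate 2 of BCPAP with Y15.

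In K1 cells 1 gene rose and 1 fell as well, where 4.62% of all genes tested were higher and 5.93% were lower. The median log2 change was 0.04, against 0.00 over all genes. SNORD14C had log2 intensities of 8.06 and 7.65 in K1 with Y15, against 7.49 and 7.32 in untreated K1 (log2 change 0.45, SE 0.119, adjusted p = 0.037 from limma). SNORD123 was not above background in K1 with Y15 and was at least 1.17-fold lower (adjusted p = 0.0449 from limma). Both Y15 arrays were above both untreated arrays for 32 of the 124 (25.4% of all genes) and below both for 15 (25.2% of all genes). At an unadjusted p under 0.05 from limma, 9 of the 124 were higher and 3 were lower, where 12.6% and 13.3% of all genes were. With median centring neither gene was called, and 0 of the 124 rose or fell, where 0.0566% of all genes were higher and 1.07% were lower.

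The 2 K1 arrays with Y15 differed from each other. Across genes, which are not independent replicates, their log2 intensities had a correlation of 0.979, where the replicates of the other groups had 0.993 to 0.998. The snoRNA and scaRNA genes lay at a median of 0.10 above the untreated K1 mean on replicate 1 and at -0.01 on replicate 2. SNORA67 was at 9.41 on replicate 1 and 8.78 on replicate 2 with Y15, against 8.69 and 8.59 in untreated K1. For SNORD56 the Y15 arrays read 7.73 and 7.05, and the untreated arrays read 7.04 and 7.01. Without replicate 2 of K1 with Y15, 27 of the 138 genes then tested rose (19.6%), where 13.6% of all genes did, and without replicate 1 of K1 with Y15 0 of 129 rose, where 3.87% of all genes did. Without replicate 1 or without replicate 2 of untreated K1, 0 rose and 0 fell.

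The effect of Y15 was compared between the lines with an F test on each gene. It differed for 23 of the 124 (18.5%), the same share as over all genes tested (18.5%). These were 16 of 55 SNORA genes (29.1%), 6 of 60 SNORD genes (10.0%) and 1 of 9 SCARNA genes (11.1%). SNORD14C had the lowest adjusted p (0.00645, F test of limma), with log2 changes of 0.73 for TPC1, -0.24 for BCPAP and 0.45 for K1. SCARNA10 came next (adjusted p = 0.00654, F test of limma), with 0.50, -0.20 and 0.09 in the same order of lines. SNORA67 showed 1.13 for TPC1, -0.12 for BCPAP and 0.46 for K1, and SNORA63 showed 0.96, 0.04 and 0.27. For SNORA7B, which rose in TPC1, no difference between lines was called (adjusted p = 0.216, F test of limma), and its changes were 0.82, 0.33 and 0.32 with a SE of 0.163 each. With median centring the effect differed for 1 of the 124, and the share over all genes is not given for that setting. The count also changed when an array was left out. The number tested then changed too, and no share over all genes is given. Whether these shifts were particular to these genes was not tested.

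Without Y15 some of these genes differed between the lines, in each comparison and direction at a lower share than all genes tested. Of the 124 genes 7 were higher (5.65%) and 23 lower (18.5%) in untreated TPC1 than in untreated BCPAP. Of all genes tested 28.1% were higher and 24.9% were lower. In untreated TPC1 against untreated K1, 1 was higher (0.806%) and 11 were lower (8.87%), where 20% and 17.6% of all genes were. For untreated BCPAP against untreated K1 the numbers were 13 higher (10.5%) and 7 lower (5.65%), where 23.5% and 24.7% of all genes were. With median centring these splits became 12 higher and 2 lower, 1 higher and 1 lower, and 0 higher and 16 lower, so the directions named below are relative to quantile normalization. The shares over all genes were not counted for these comparisons under median centring or with an array left out. Whether the shifts were particular to these genes was therefore not tested. Without replicate 1 of untreated TPC1 the lower genes numbered 14 against BCPAP and 0 against K1. Against K1 there were also 2 without replicate 2 of untreated TPC1, 0 without replicate 1 of untreated K1 and 5 without replicate 2 of untreated K1. The higher genes of TPC1 against BCPAP numbered 3 without replicate 2 of untreated TPC1 and 4 without replicate 2 of untreated BCPAP. For BCPAP against K1, 6 were higher without replicate 2 of untreated K1 and 4 were lower without replicate 2 of untreated BCPAP.

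SNORD96A and SCARNA9 were brightest in BCPAP. SNORD96A had log2 intensities of 7.31 and 7.46 in untreated TPC1, 8.49 and 8.52 in untreated BCPAP, and 7.77 and 7.71 in untreated K1. It was lower by 1.12 in TPC1 than in BCPAP (log2 change -1.12, SE 0.121, adjusted p = 1.26e-05 from limma) and differed from K1 in both lines (log2 changes -0.36 for TPC1 and 0.76 for BCPAP). SCARNA9, which guides modification of a spliceosomal snRNA, had 7.20 and 7.13 in untreated TPC1, 8.27 and 8.25 in untreated BCPAP, and 7.60 and 7.32 in untreated K1. Its log2 difference was -1.10 for TPC1 minus BCPAP and 0.80 for BCPAP minus K1, both called, and TPC1 minus K1 was not called (-0.30, adjusted p = 0.0935 from limma). SNORA57 ran in the same order, with a log2 difference of -0.70 for TPC1 minus BCPAP, though with median centring its difference of BCPAP from K1 changed sign.

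SNORD13 and SNORD89 showed other orders. SNORD13 had log2 intensities of 7.80 and 8.13 in untreated TPC1, 7.08 and 6.93 in untreated BCPAP, and 7.09 and 7.07 in untreated K1. TPC1 was higher by 0.95 than BCPAP and by 0.88 than K1 (adjusted p = 3.42e-05 and 0.000101 from limma), while BCPAP minus K1 was not called (-0.07, adjusted p = 0.644 from limma). SNORD89 had 7.82 and 7.80 in untreated TPC1, 7.07 and 6.97 in untreated BCPAP, and 8.03 and 7.85 in untreated K1, and BCPAP was lower by 0.92 than K1 (log2 change -0.92, adjusted p = 0.000241 from limma). SNORD31 was highest in K1, with log2 differences of -0.37 for TPC1 minus K1 and -0.56 for BCPAP minus K1.

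**Figure D4:**
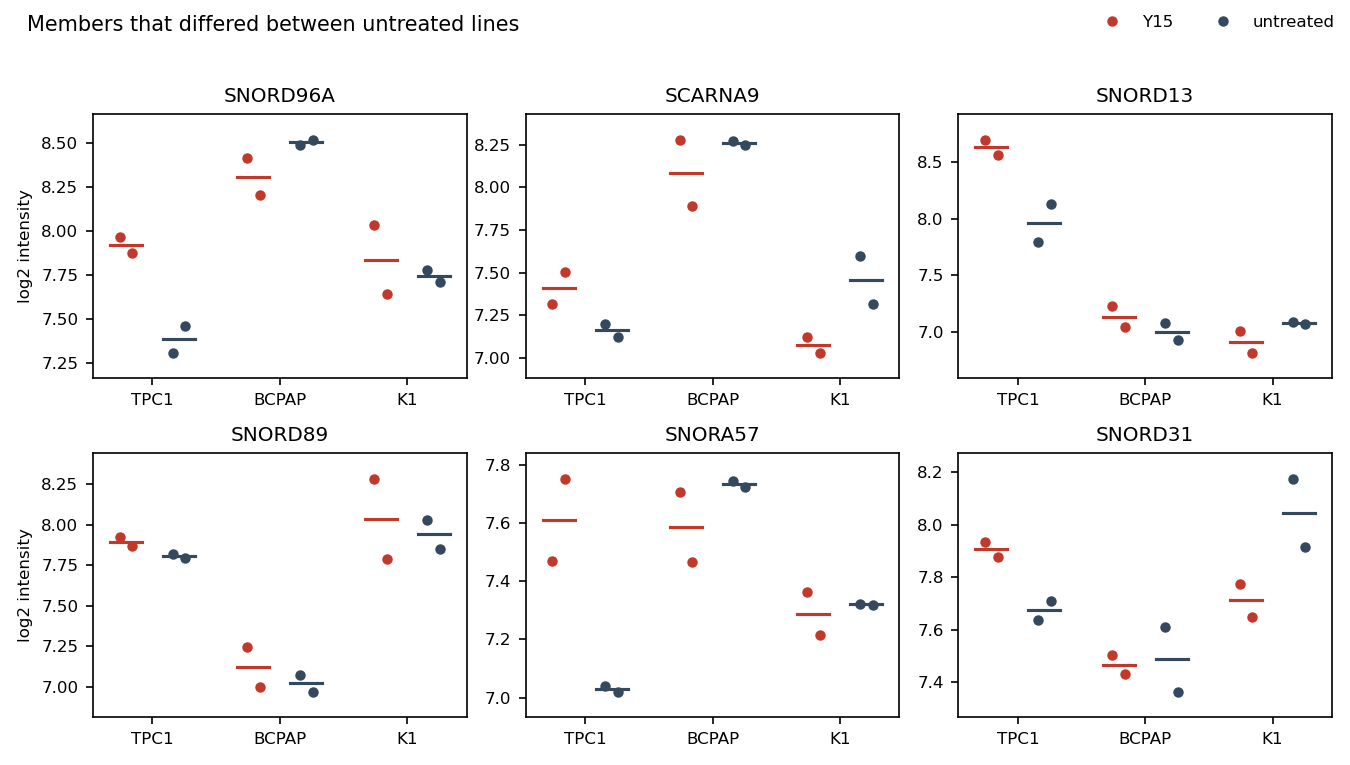
Log2 intensity (vertical axes) on each array for 6 genes that differed between untreated lines, by line, with Y15 to the left of untreated. Points are arrays and bars are the means of 2 arrays. SNORD96A and SCARNA9 are highest in BCPAP (untreated arrays from 8.25 to 8.52), and SNORD13 is highest in TPC1.

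Host genes were taken as the annotated genes whose span holds the snoRNA or scaRNA gene, without regard to strand. Of the 55 genes higher in TPC1, 44 had a host that was measured, and these were 35 different hosts. Of the 35 hosts 12 rose, 3 fell and 20 were not called, where 15.3% of all genes tested rose and 16.1% fell. The median log2 change of the host over the 44 genes was 0.19, against -0.0005 over all genes tested. NOP56, a core protein of C/D particles that is itself a host, rose (log2 change 0.53), and SNORD56 and SNORD57 of its 3 tested snoRNAs rose with it. SNHG8, a noncoding host, rose by a log2 change of 1.10, and SNORA24 within it by 0.58.

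In several hosts the snoRNA and the host differed. SNHG1, a noncoding host, rose by a log2 change of 1.31 in TPC1 (adjusted p = 2.25e-05 from limma), and 0 of its 4 tested snoRNAs were called, SNORD22, SNORD25, SNORD30 and SNORD31 (log2 changes 0.24, 0.26, 0.16 and 0.23). EIF4A1, a translation initiation factor that hosts SNORA67, had a log2 change of -0.10 (adjusted p = 0.447 from limma). In TAF1D, which encodes a factor of RNA polymerase I transcription, 3 of 6 tested snoRNAs rose (SNORA8, SNORA18 and SNORA25), and the host was not called (log2 change 0.24), though with neqc, a background correction from the detection p-values, it was (0.66, adjusted p = 0.0462 from limma). NCAPD2, a condensin subunit that hosts SCARNA10, fell by 1.04 on the log2 scale. RPL3, a ribosomal protein gene, fell by 0.24, and SNORD83B and SNORD139 within it rose (log2 changes 0.63 and 0.32). RPS2, another ribosomal protein gene, had a log2 change of -0.08, and SNORA10 and SNORA64 within it both rose by 0.64. RPL13A hosted 4 tested snoRNAs, of which 0 were called, with a host change of 0.00. With median centring SNHG1 and SNHG8 were still higher (0.86 and 0.62) and NCAPD2 lower (-1.46), while NOP56 and RPL3 were not called (0.11 and -0.29).

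**Figure D5:**
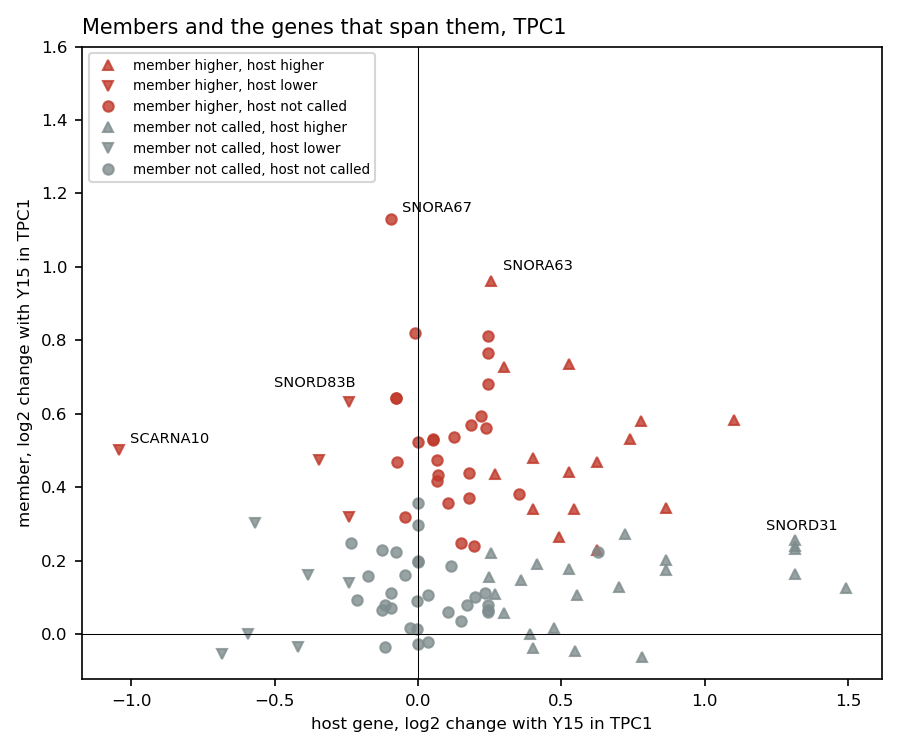
Log2 change with Y15 in TPC1 of each tested snoRNA or scaRNA gene (vertical axis) against that of its measured host (horizontal axis). Colour shows the call of the gene and the marker shape that of the host. SNORA67 (1.13) lies over a host at -0.10, SCARNA10 (0.50) over a host at -1.04, and the snoRNAs of SNHG1 lie at 1.31 on the host axis with changes of 0.16 to 0.26.

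Noncoding host genes were counted in each line. Of 15 measured, with TAF1D left out as it encodes a protein, 9 rose and 0 fell in TPC1 (15.3% and 16.1% of all genes), 8 rose and 0 fell in BCPAP (8.65% and 7.6%), and 0 rose and 1 fell in K1 (4.62% and 5.93%), with median log2 changes of 0.61, 0.41 and 0.04. With median centring 3 rose in TPC1, where 1.82% of all genes did, 11 in BCPAP, where 16.9% did, and 0 in K1, where 0.0566% did. In BCPAP SNHG7 (1.11), ZFAS1 (0.76) and SNHG8 (0.54) were among those that rose, and SNORD95, in a gene outside this list, was the only tested snoRNA or scaRNA gene that rose there.

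The proteins of the snoRNA particles were compared in the same fit. Of the 4 core proteins of C/D particles NOP56, NOP58 and SNU13 rose in TPC1 (log2 changes 0.53, 0.36 and 0.30), and fibrillarin (FBL), the methyltransferase, was at -0.11 and was not called. In BCPAP FBL and SNU13 fell by 0.26 and 0.40, and in K1 0 of the 4 were called. Of the 4 core proteins of H/ACA particles DKC1, the pseudouridine synthase dyskerin, NOP10 and GAR1 rose in TPC1 (0.72, 0.58 and 0.40), and 0 of 4 were called in BCPAP or in K1. Among 11 assembly factors 4 rose in TPC1, 1 in BCPAP and 3 in K1, and 0 fell in any line (15.3%, 8.65% and 4.62% of all genes rose in these lines). NOLC1, a nucleolar and Cajal body phosphoprotein, rose in TPC1 (0.80) and K1 (0.56), and ZNHIT6, an assembly factor of C/D particles, rose in all 3 lines (0.58, 0.28 and 0.37), though it was called in TPC1 alone with neqc and in BCPAP alone with median centring. Of 9 Cajal body proteins 0 were called in TPC1, 1 rose in BCPAP (TOE1, a nuclease, 0.32) and 0 were called in K1. Of 17 enzymes of snoRNA trimming and decay 5 rose and 1 fell in TPC1, 2 rose in BCPAP and 3 rose in K1, where 15.3%, 8.65% and 4.62% of all genes rose. The exosome subunit EXOSC5 rose in every line (0.80, 0.51 and 0.56), but with median centring it was called in BCPAP alone, and DBR1, the enzyme that opens intron lariats, fell by 0.29 in TPC1. These calls depended on the scaling, since with median centring 0 of the 8 core proteins were called in any line. Of the 11 assembly factors 0 then rose in TPC1, 2 in BCPAP and 0 in K1. Of the 17 enzymes 0 rose and 1 fell in TPC1, 3 rose in BCPAP and 0 in K1. With this centring 1.82% of all genes rose and 19.3% fell in TPC1, 16.9% rose in BCPAP and 0.0566% rose in K1.

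Other small noncoding RNAs, among them the snRNAs, the Y RNAs, RN7SK and the SNORD3 genes, had larger changes in TPC1. Of 26 tested 20 rose and 0 fell, where 15.3% and 16.1% of all genes did so, with a median log2 change of 0.78. RNU6-1, the U6 snRNA, rose by a log2 change of 2.47, SNORD3A, the U3 snoRNA of rRNA processing, by 2.69, and RN7SK, a regulator of transcription elongation, by 2.03. In BCPAP 3 of the 26 rose and 2 fell (median 0.15), where 8.65% and 7.6% of all genes did so. In K1 2 rose and 2 fell (median 0.02), where 4.62% and 5.93% of all genes did so. Replication-dependent histone genes, whose mRNAs also lack poly(A) tails, had 4 of 32 higher and 1 lower in TPC1, with a median of 0.11, where 15.3% of all genes were higher. With median centring 14 of the 26 small RNAs rose in TPC1 and 0 fell (median 0.66), against 1 histone gene higher and 2 lower. Of all genes 1.82% were then higher and 19.3% lower. The part of these RNAs in the snoRNA result was not tested. Of the thyroid markers PAX8 was above background in all 6 groups, and TG, TSHR and SLC5A5 were not above background on both arrays of any group, so these markers of differentiated thyroid follicular cells were not detected.

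A few of these genes hold a microRNA hairpin within or across their ends. Among the tested genes SNORA84 holds MIR3651, SNORA2C holds MIR1291 and SCARNA16 holds MIR6516, and their mature sequences from RefSeq (GRCh38.p14) are shown to name the products annotated inside these genes. Capitals mark the seed.
hsa-miR-3651 (chr9:92292461-92292484, minus strand): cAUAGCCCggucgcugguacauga
hsa-miR-1291 (chr12:48654494-48654517, minus strand): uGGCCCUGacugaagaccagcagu
hsa-miR-6516-5p (chr17:77089428-77089449, plus strand): uUUGCAGUaacaggugugagca
hsa-miR-6516-3p (chr17:77089469-77089490, plus strand): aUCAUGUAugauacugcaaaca
No seed is shared between them. SNORA84 had log2 intensities of 7.53 and 7.58 in TPC1 with Y15, against 6.93 and 6.99 in untreated TPC1, and rose (log2 change 0.59, adjusted p = 0.000589 from limma). SNORA2C and SCARNA16 were not called in TPC1 (log2 changes 0.11 and 0.10). The position of the probes within these genes was not examined, so no value is given for the microRNAs.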

How the data were processed

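The authors deposited the signal intensity and detection p-value of each probe on each of the 12 bead arrays, and log2 values of the same arrays. The submitters' processing notes name GenomeStudio. The methods describe HumanRef-8 arrays, while the probe annotation is that of an HT-12 array. They state the dose and time for TT cells, and the deposited design text gives them for these lines. The deposited log2 values equalled quantile-normalized log2 intensities of 47311 probes within 5e-09, so they are not a separate check. Of 47323 probes 12 had empty values, 30109 carried 1 gene symbol, 8 several and 17194 none.

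Intensities were converted to log2, quantile normalized and tested with limma 3.58.1 in R 4.3.3, with 1 mean per group over 12 arrays and Benjamini-Hochberg adjustment over 12378 genes. A gene was represented by its brightest probe with a detection p under 0.05 on both arrays of at least 1 group. The procedure was tested on simulated data. Genes cited are the called ones by size, up to 15 in each direction, with per-array values for up to 8, and the 3 brightest of each class. In the comparison of lines up to 10 genes by p, and between untreated lines up to 6 in each direction, could be cited. SCARNA18, SNORD49A, SNORD53, SNORA84 and the host examples were chosen after their values were seen. The genes and lists were chosen with earlier results of these data known. Strand was not given for these genes, so hosts were assigned by span alone. Alternatives were median centring, neqc, other filters and probe rules, array weights, a replicate block, each line alone, each array left out, and the methods' threshold (unadjusted p under 0.05 and at least 1.2-fold).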

Additional observations from a re-analysis of the deposited data

Results flagged for a closer look

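Between the 3 lines the Y15 effect was unequal for 23 of the 124 tested genes (adjusted p from the F test of limma), the same share as over all genes. The adjusted p was 0.00645 for SNORD14C, 0.00654 for SCARNA10, 0.00708 for SNORA73B and 0.00831 for SNORA18. It was 0.0117 for SNORA57, 0.0126 for SNORA63, 0.0139 for SNORD13, 0.0147 for SNORA50C, 0.0156 for SNORA67, 0.0179 for SNORA8 and 0.0182 for SNORA10.
For the others it was 0.0193 for SNORA3B, 0.0197 for SNORA6, 0.0221 for SNORD95, 0.0249 for SNORA73A, 0.0257 for SNORA62, 0.0268 for SNORA84. It was 0.0303 for SNORD96A, 0.0306 for SNORA24, 0.0343 for SNORD104, 0.0396 for SNORA65, 0.0489 for SNORA28 and 0.049 for SNORD46. All of these but SNORA50C rose in TPC1, and SNORA50C fell in BCPAP.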

How the results depend on the processing

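Median centring moved most results. For Y15 it gave 8 genes higher in TPC1, in BCPAP 4 higher and 0 lower, in K1 0 and 0, 12 higher and 2 lower for untreated TPC1 against BCPAP, 1 lower for TPC1 against K1, 0 higher and 16 lower for BCPAP against K1, and 1 gene that differed between lines. The median change of the tested genes was then 0.1332 in TPC1 and 0.1277 in BCPAP. In the untreated comparisons it reversed SCARNA10 (0.0843) and SNORD68 (0.0115) for TPC1 minus BCPAP and SNORD68 (-0.16) and SNORA57 (-0.0101) for BCPAP minus K1, with none of them called. Of the 15 genes cited as higher in TPC1, 3 stayed called (SNORA63, SNORD14C and SNORD46). Neqc gave medians of 0.6658 in TPC1 and 0.0720 in BCPAP. With neqc 2 were higher and 2 lower in BCPAP, where 7.81% and 6.11% of all genes were. In K1 the counts were also 2 and 2, where 2.59% and 4.0% of all genes were higher and lower. For untreated TPC1 against K1, 2 were higher and 17 lower with neqc. Array quality weights gave 0 and 0 in K1, where 2.15% of all genes were higher and 3.26% were lower. They gave 3 higher and 23 lower for untreated TPC1 against K1. With weights 36 genes differed between lines. No share over all genes is given for these 2 comparisons. Each line alone gave 3 of 95 higher in BCPAP (3.16%), where 11% of all genes were. In K1 alone it gave 0 and 0, where 0% of all genes were called. In K1, 2 of 298 were higher with no detection filter (0.671%), where 2.61% of all genes were. With the mean of all probes 3 of 124 were higher in K1 (2.42%), where 4.67% of all genes were. At the methods' threshold 5 were higher and 2 lower in K1, and the share over all genes is not given. Over genes above background on all 12 arrays, a set chosen after the data were seen, the median was 0.3574 in TPC1 and -0.0042 in BCPAP. In untreated BCPAP 38 genes were above background at a detection p under 0.01, and 107 on at least 1 array.

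Leaving out 1 array gave, in TPC1, 31 to 39 higher and 0 to 1 lower, for BCPAP 1 to 6 and 0 to 3, for K1 0 to 27 and 0 to 1, and 3 to 47 genes that differed between lines. Untreated, the ranges were 3 to 6 higher and 14 to 22 lower for TPC1 against BCPAP, 0 to 5 lower for TPC1 against K1, and 6 to 14 higher and 4 to 7 lower for BCPAP against K1. The medians ran from 0.2000 to 0.2298 in TPC1, 0.0004 to 0.0571 in BCPAP and -0.0081 to 0.1120 in K1. The number of genes tested changed with each array left out, and for Y15 the shares over all genes changed too. The counts therefore have no common base.

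Replicate numbers did not pair the arrays, since the deviations of same-numbered arrays correlated at 0.19 in TPC1, -0.18 in BCPAP and -0.01 in K1. A replicate block gave, for TPC1, 50 genes higher and 1 lower, for BCPAP 1 and 1, and for K1 1 and 0. With the numbers crossed in BCPAP, 1 was higher and 1 lower there.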
